A study of Mus musculus with 76 samples.

Results

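The core circadian clock genes measured here are 10 of the 55536 genes in the count table. They comprise the activators *Arntl* and *Clock*, the repressors *Nr1d1*, *Nr1d2*, *Per1*, *Per2*, *Per3* and *Bhlhe41*, and the output factors *Dbp* and *Tef*. The genes were taken by symbol through their gene IDs, and they had been chosen on measured values, namely their levels in CT26 tumors treated with extracellular catalase against alum. That contrast is therefore given as a description, with no test of these genes. All 10 genes had counts, and each was followed through 38 tumors in 7 groups.

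The circadian clock is a transcriptional feedback loop that most mammalian cells run. The proteins of *Arntl* (also called Bmal1) and *Clock* bind E-box sequences together and activate the *Per* and *Cry* genes, whose products then repress that same pair. In a second loop the nuclear receptors of *Nr1d1* and *Nr1d2* (REV-ERB alpha and beta) repress *Arntl* through ROR elements, and *Dbp* and *Tef* encode PAR bZIP factors that act through D-boxes. In a running clock *Arntl* therefore peaks opposite in phase to *Dbp*, *Nr1d1* and the *Per* genes, so the hour at which tissue is taken matters. The hour of harvest is not given in the sources used here.

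RNA was sequenced from whole subcutaneous flank tumors of Balb/c mice, in 2 technical replicate libraries per tumor. CT26 is a mouse colorectal carcinoma line and 4T1 a mouse mammary carcinoma line. Extracellular catalase (EC CAT) was 20 µg of CAT-ABP, catalase carrying an alum-binding peptide, injected into the tumor on day 6 with 100 µg of alum, a particulate that holds it in place, and every other tumor received alum alone. Tumors were harvested on day 8, and n is 6 and 5 tumors for CAT-ABP + alum and alum in CT26, 6 and 5 in 4T1, and 5 and 5 in 4T1-CAT. 4T1-CAT cells carry a doxycycline (DOX)-inducible cytoplasmic catalase with GFP, and 4T1-control cells (6 tumors, alum) carry GFP alone. Both engineered lines were made by lentiviral transduction, and mice bearing them were fed a DOX diet from day 4, so that engineering and diet cannot be told apart when they are set against 4T1. Intracellular catalase (IC CAT) is the comparison of 4T1-CAT with 4T1-control, both with alum.

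Counts of both libraries were added for each tumor, giving totals between 493086 and 9077683. The 2 shallowest tumors were 4T1-control replicate 2 (493086 counts) and 4T1 CAT-ABP + alum replicate 4 (837522 counts), and low genes are poorly measured in both. In the first of these tumors *Tef* had 1 count and *Nr1d1*, *Dbp*, *Per1*, *Per2* and *Per3* had 0. The libraries carried 4 index tags, and libraries with the same tag are called a pool here. The labels do not say whether the tags mark sequencing pools. All CT26 tumors and all 4T1 tumors given CAT-ABP + alum were in pools 2 and 3 together with 4T1 alum replicates 1 and 2, whereas the other 3 4T1 alum tumors and all engineered tumors were in pools 1 and 4. Levels are in CPM, a gene's counts relative to the library total after scaling by trimmed mean of M-values (TMM), and they are not corrected for transcript length, so they are compared between tumors and not between genes. In bulk tumors, fewer cells of a type and less RNA per cell cannot be told apart.

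Promoter sequences of these genes show the elements named above. RefSeq windows of 300 bases (250 before and 50 after a transcription start, GRCm38.p6) were held for 9 of the 10 genes, 14 windows in all, and not for *Per2*. Both strands were searched for the E-box CACGTG, the E'-box CACGTT, the D-box TTANGTAA and the ROR element core TAGGTCA or TGGGTCA. The E-box was in 4 of the 14 windows (*Bhlhe41*, *Per1* and both windows of *Tef*) and in 7.15% of all 32851 windows. The E'-box was in 1 window, that of *Nr1d1*, and in 4.68% of all windows. The D-box was in the window of *Per3*, which held 2 copies, and in 2.32% of all windows. The ROR element core was in 1 of the 2 *Arntl* windows and in 6.45% of all windows. No window held 2 different motifs, and windows of *Clock*, *Dbp* and *Nr1d2* held none of these letters. The stretches below show these matches for *Arntl* and for 3 of the genes that were lower with EC CAT in CT26, with the matched letters in capitals. The *Per3* stretch (chr4:151044800-151044886, minus strand) lies upstream of the annotated gene, and its 2 D-boxes start 47 bases apart. The *Bhlhe41* stretch (chr6:145865556-145865585, minus strand) touches the first exon. The *Tef* stretch (chr15:81811242-81811315, plus strand) is intronic in the longest annotation of the gene and upstream of an internal start, and the *Arntl* stretch (chr7:113207530-113207559, plus strand) lies in the first exon.
Per3: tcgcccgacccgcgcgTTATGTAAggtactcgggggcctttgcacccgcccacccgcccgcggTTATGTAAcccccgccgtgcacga
Bhlhe41: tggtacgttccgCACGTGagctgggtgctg
Tef: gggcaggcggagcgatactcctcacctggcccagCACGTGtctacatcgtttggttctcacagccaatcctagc
Arntl: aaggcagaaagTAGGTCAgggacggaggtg

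CT26 tumors given CAT-ABP + alum had a higher *Arntl* level than CT26 tumors given alum, and lower levels of 6 of the 7 repressor and output genes that passed the filter on low counts. These values led to the choice of the genes and are not evidence for a change. *Arntl* (ENSMUSG00000055116, chr7:113207465-113314126), the partner of *Clock* in the activating complex, ranged from 18.8 to 31.0 CPM (median 22.5) with CAT-ABP + alum. In the CT26 alum tumors its levels were 9.24, 12.9, 14.03, 14.7 and 15.4 CPM. The groups did not overlap, and the log2 fold change was 0.81 ± 0.18 (SE). *Clock* (chr5:76209868-76304792) had 36.2 ± 6.02 CPM with CAT-ABP + alum and 32.7 ± 6.62 CPM with alum (SD, n = 6 and 5), a log2 fold change of 0.16 ± 0.16, and its groups overlapped.

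Of the genes that passed the filter, *Dbp* had the lowest log2 fold change in CT26. *Dbp* (chr7:45705088-45710203), a clock output whose level follows the activating complex closely, had 3.86, 7.32, 7.35, 8.50 and 10.7 CPM in the CT26 alum tumors, from 16 to 54 counts each. With CAT-ABP + alum it ranged from 0 to 3.40 CPM (median 1.31), from 0 to 16 counts, and every one of these tumors lay below every alum tumor. The log2 fold change of *Dbp* was -2.37 ± 0.57 (SE). *Tef* (chr15:81802421-81826863), its relative, had 13.3, 17.6, 19.0, 24.3 and 27.1 CPM with alum. With CAT-ABP + alum *Tef* ranged from 7.11 to 12.6 CPM (median 10.8), below all alum tumors, with a log2 fold change of -0.997 ± 0.21.

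Among the repressors, *Bhlhe41* (DEC2, which competes for E-boxes, chr6:145858243-145865558) had 8.89, 9.24, 12.6, 12.7 and 15.2 CPM with alum and from 4.73 to 8.52 CPM (median 6.95) with CAT-ABP + alum. Its groups did not overlap, and the log2 fold change was -0.80 ± 0.22 (SE). *Nr1d2* (chr14:18204054-18239127) had 17.6, 19.0, 26.1, 26.5 and 26.8 CPM with alum and from 9.95 to 20.2 CPM (median 15.3) with CAT-ABP + alum, a log2 fold change of -0.67 ± 0.20 with overlapping groups. *Per2* (chr1:91415982-91459324) had 1.93, 3.16, 3.51, 4.09 and 5.35 CPM with alum and from 0.243 to 3.23 CPM (median 0.860) with CAT-ABP + alum, and its log2 fold change was -1.55 ± 0.51. Those *Per2* levels rest on 1 to 12 counts per treated tumor. *Per3* (chr4:151003652-151044665) had a log2 fold change of -0.69 ± 0.34 and overlapping groups.

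*Nr1d1* and *Per1* were thinly counted in CT26, as was *Per2*. *Nr1d1* (chr11:98767932-98775333) did not pass the filter in this contrast and had from 0.537 to 1.81 CPM with CAT-ABP + alum, against 1.69, 2.77, 3.00, 4.98 and 5.35 CPM with alum, where 1 alum tumor lay within the range of the treated tumors. *Per1* (chr11:69095217-69109960), a *Per* gene that also responds directly to stress hormones and cAMP signalling, did not share the direction of *Per2* and *Per3*. Its log2 fold change was 0.09 ± 0.47 (SE), with 2.21 ± 1.26 CPM against 2.03 ± 1.35 CPM (SD, n = 6 and 5). Of the 9 genes that passed the filter, 4 did not overlap between the groups (*Arntl*, *Dbp*, *Tef* and *Bhlhe41*). Over all 12830 genes tested 38 genes, or 0.296%, did not overlap, and nothing is read from this since the same values chose the genes. Across all genes, edgeR's quasi-likelihood test called 0 genes (0%) at an adjusted p of 0.05, 311 had an unadjusted p under 0.05, and DESeq2 and limma voom called 1 gene each.

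**Figure D1:**
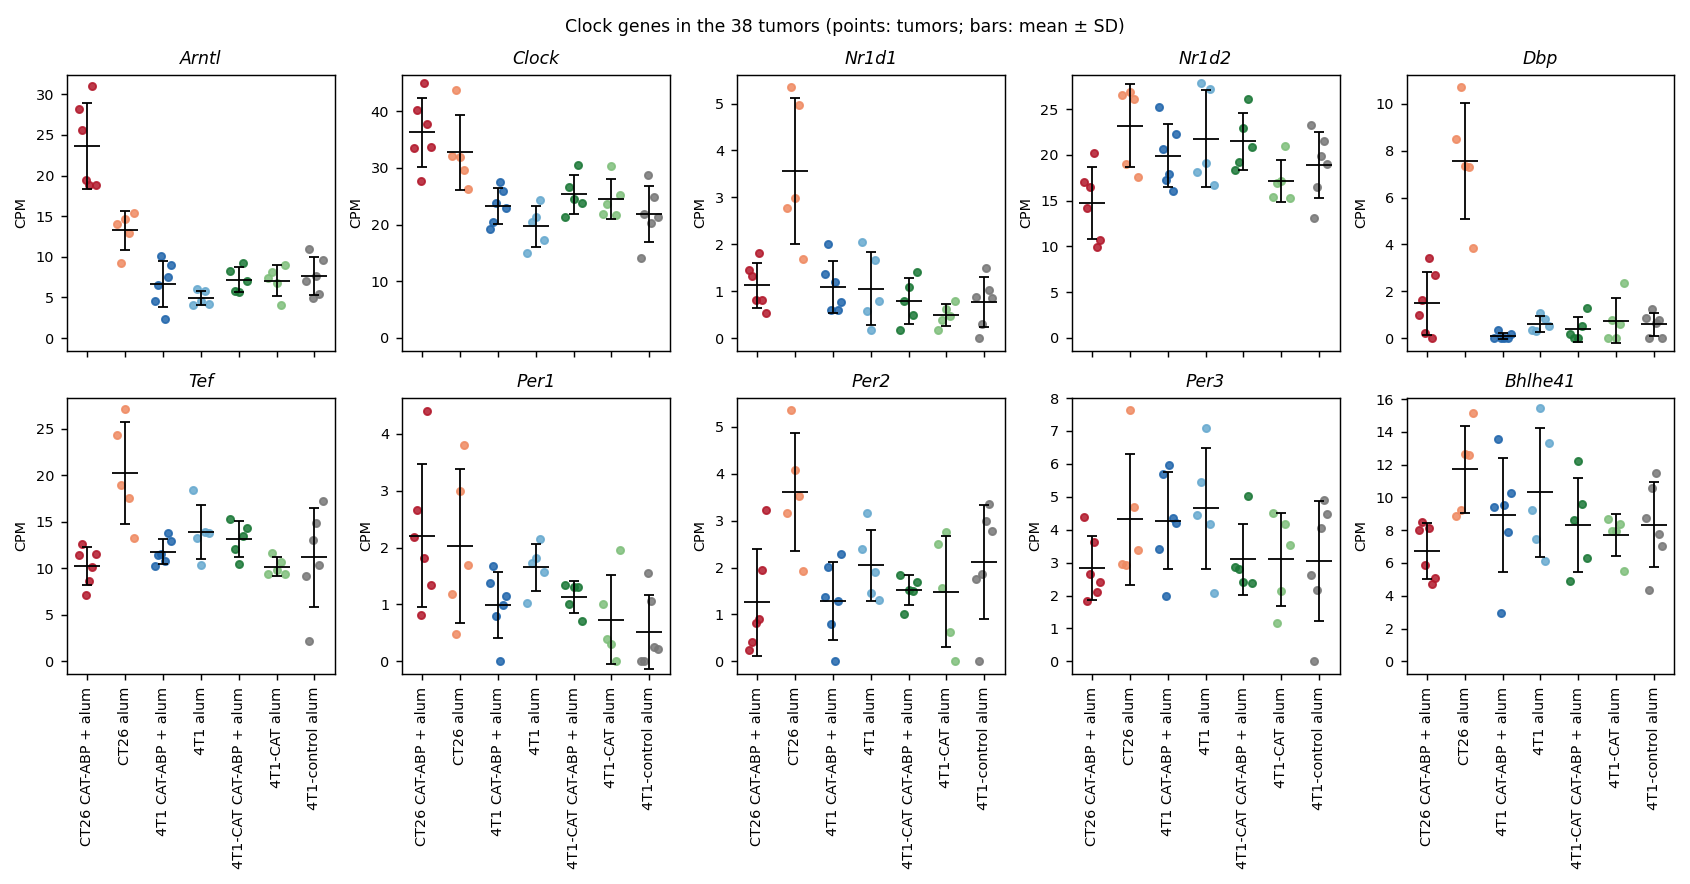
Levels of the 10 clock genes in CPM (y axis, 1 panel per gene with its own scale) in the 7 groups (x axis). Points are tumors and black bars are mean ± SD. In CT26, *Arntl* was 23.6 CPM on average with CAT-ABP + alum and 13.3 CPM with alum, while *Dbp* was 1.48 and 7.55 CPM.

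Both libraries of each tumor carried the same signs for the CT26 differences, as differences in mean log2 CPM. *Arntl* differed by 0.62 in technical replicate 1 libraries and by 1.07 in technical replicate 2 libraries, *Dbp* by -2.42 and -1.60, *Tef* by -1.07 and -0.73, and *Bhlhe41* by -0.59 and -0.91. *Nr1d1* differed by -1.63 in the first and by -0.13 in the second, so its difference came mostly from 1 of the 2 sets. These libraries share their tumors and are not independent of the choice. Leaving out each tumor in turn kept the log2 fold change of *Arntl* between 0.72 and 0.87, of *Dbp* between -2.78 and -2.08 and of *Tef* between -1.13 and -0.85. Without CT26 alum replicate 1 or 2 the sign of *Per1* turned, to -0.07 and -0.08.

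Other genes of the clock are given for the same CT26 contrast as a description, since the 10 genes had been picked from among the clock genes on these values. Of 16 other clock genes, 12 passed the filter and 0 passed edgeR's quasi-likelihood test at an adjusted p of 0.05 (0 also had an unadjusted p under 0.05), and their median log2 fold change was -0.03 beside 0.00 over all genes. *Cry1* and *Cry2*, the partners of the PER proteins, had log2 fold changes of -0.12 ± 0.40 and -0.15 ± 0.29 (SE). *Ciart*, a repressor usually in phase with *Dbp*, had -0.41 ± 0.26, and *Bhlhe40*, the closest relative of *Bhlhe41*, had -0.40 ± 0.24. Of 11 genes known as clock-controlled, 8 passed the filter and 0 were called by edgeR, and 1 of them, *Por*, had an unadjusted p under 0.05 with a log2 fold change of -0.35 ± 0.13. Of 10 glucocorticoid-responsive genes, which report the hormone that resets peripheral clocks, 8 passed the filter, 0 were called and 0 had an unadjusted p under 0.05. *Tsc22d3* had a log2 fold change of 0.48 ± 0.23 and *Fkbp5* of -0.07 ± 0.15. Summed levels of muscle, adipocyte, fibroblast, endothelial, macrophage, T cell and epithelial markers overlapped between both CT26 groups. Skeletal muscle markers, for example, summed to between 165 and 410 CPM with CAT-ABP + alum and between 86.1 and 774 CPM with alum. Neutrophil markers summed to 64.8 to 128 CPM and 47.7 to 79.7 CPM, and 4 of 4 tested had positive log2 fold changes (median 0.60). The muscle gene *Myh4* (-2.12 ± 0.64) and the neutrophil gene *Retnlg* (1.11 ± 0.40) were the only tested markers with an unadjusted p under 0.05 (edgeR), and neither was called. The part of these cells in the clock gene levels was not tested.

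The same treatment in 4T1 asks whether the clock genes differ with EC CAT in a second tumor model, and this contrast was not used to choose them. None of the 7 genes that passed the filter was called. *Arntl* ranged from 2.39 to 10.1 CPM (median 7.02) with CAT-ABP + alum and was 4.095, 4.18, 4.55, 5.74 and 6.03 CPM with alum. The groups overlapped, since the lowest and the highest tumor both belonged to the treated group, and the lowest rests on 2 counts. The log2 fold change of *Arntl* was 0.51 ± 0.27 (SE) with an adjusted p of 0.999 by edgeR's quasi-likelihood test, and a two-sided exact permutation test of mean log2 CPM gave p = 0.383. *Tef* ranged from 10.3 to 13.8 CPM (median 11.45) with CAT-ABP + alum and was 10.4, 13.2, 13.8, 13.9 and 18.4 CPM with alum, a log2 fold change of -0.22 ± 0.18 (exact permutation p = 0.139). *Nr1d2* had 19.9 ± 3.46 and 21.8 ± 5.30 CPM (SD, n = 6 and 5), with a log2 fold change of -0.14 ± 0.18. *Per2* had -0.45 ± 0.40, *Per3* -0.21 ± 0.33, *Bhlhe41* -0.22 ± 0.32 and *Clock* 0.19 ± 0.16 as log2 fold changes.

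*Dbp* was at the limit of detection in 4T1. The alum tumors had 1, 1, 2, 6 and 7 counts, and of the tumors given CAT-ABP + alum 4 had 0, 1 had 1 and 1 had 2 counts. *Dbp* did not pass the filter here, and no fold change is given because most of these tumors are at or under 3 counts. Its mean log2 CPM was lower with CAT-ABP + alum (two-sided exact permutation p = 0.00649, where the smallest p this design allows is 0.00216), a difference of -1.03. In technical replicate 2 libraries alone the difference was -0.07, and 3 of the 5 alum tumors were in other pools than the treated ones. The 2 alum tumors that shared the treated tumors' pools had 1 count each. *Nr1d1* (difference in mean log2 CPM 0.14, exact permutation p = 0.745) and *Per1* (-0.69, exact permutation p = 0.0736) did not pass the filter either. In 4T1, 0 of 13092 genes (0%) were called by edgeR, 377 genes, or 2.88%, had an unadjusted p under 0.05, and DESeq2 called 0. Of the 7 clock genes tested, 0 had an unadjusted p under 0.05 and 0 did not overlap between groups, where 0.367% of all genes did not overlap. All 5 tested repressors and output genes had negative log2 fold changes (median -0.22), beside a median of 0.00 over all genes. *Nr1d1*, a repressor left out by the filter, had the opposite sign. Among tumors of pools 2 and 3 *Bhlhe41* turned to 0.09, and without 4T1 alum replicate 3 *Per3* turned to 0.01.

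**Figure D2:**
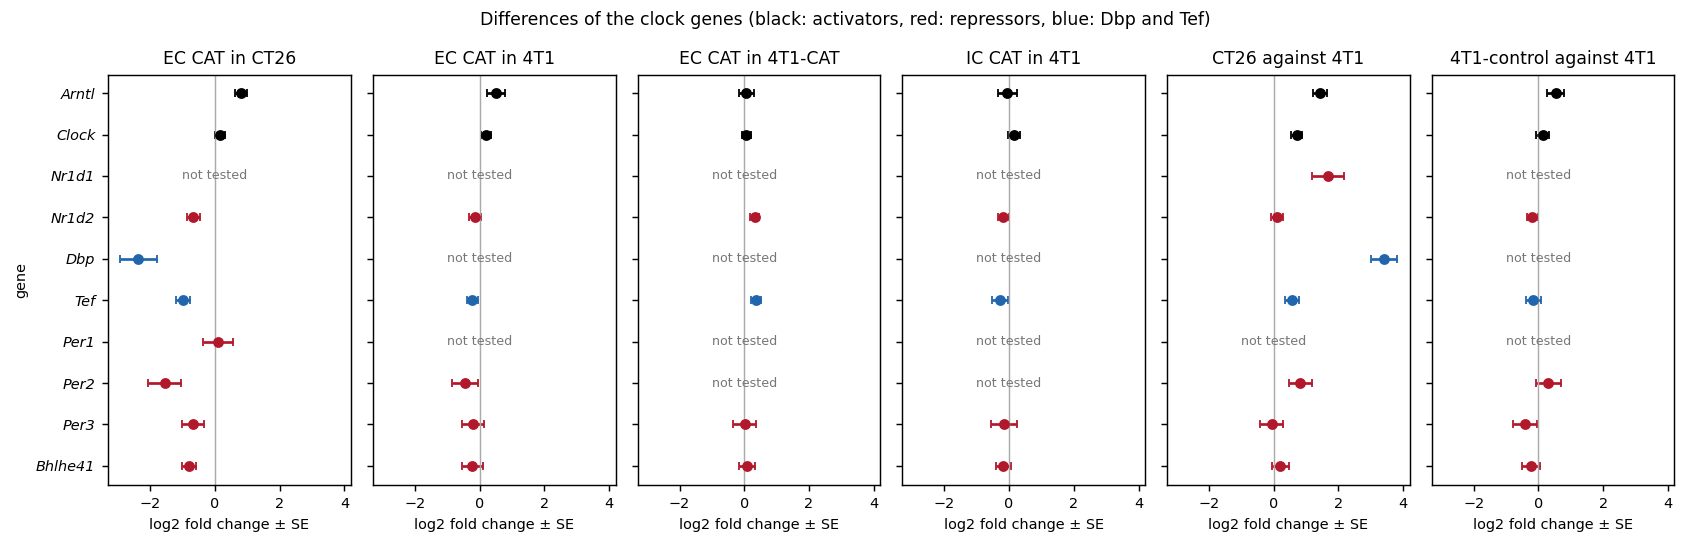
Log2 fold change ± SE (x axis) of each clock gene (y axis) in 6 comparisons, with black for activators, red for repressors and blue for *Dbp* and *Tef*; genes under the count filter are marked as not tested. Values spread from -2.37 to 0.81 in the CT26 contrast that chose the genes, and from -0.45 to 0.51 for the same treatment in 4T1.

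In 4T1-CAT tumors, which already made catalase inside the cancer cells, EC CAT was set against alum with the same DOX diet in both groups. The 6 genes that passed the filter had log2 fold changes between 0.01 and 0.37, all positive, and none was called. Of the genes under the filter, *Dbp* had a negative difference in mean log2 CPM (-0.39, exact permutation p = 0.587). *Per1* (0.68), *Nr1d1* (0.37) and *Per2* (0.34) had positive ones, with exact permutation p between 0.151 and 0.667. *Tef* was 10.5, 12.0, 13.5, 14.3 and 15.3 CPM with CAT-ABP + alum and 9.36, 9.43, 9.81, 10.7 and 11.7 CPM with alum, so that 2 alum tumors lay above the lowest treated tumor. Its log2 fold change was 0.37 ± 0.16 (SE), with an adjusted p of 0.297 and an unadjusted p of 0.0366 by edgeR's quasi-likelihood test and an exact permutation p of 0.0238. *Nr1d2* was 18.3, 19.3, 20.8, 23.0 and 26.1 CPM with CAT-ABP + alum and 15.3, 15.4, 16.9, 17.2 and 20.9 CPM with alum. Its log2 fold change was 0.32 ± 0.14 (edgeR adjusted p = 0.307, unadjusted p = 0.0401, exact permutation p = 0.0476), and its groups overlapped. *Arntl* was 0.07 ± 0.24, *Clock* 0.06 ± 0.14, *Bhlhe41* 0.09 ± 0.24 and *Per3* 0.01 ± 0.36 on the log2 scale. 2 of 6 genes with an unadjusted p under 0.05 stand beside 15.3% of all 13093 genes, and 0 of 6 without overlap stand beside 2.91%. edgeR called 0 genes (0%) at an adjusted p of 0.05, while DESeq2 called 249, none of them a clock gene. None of the cell type markers was called. All 8 muscle, 3 adipocyte, 5 fibroblast, 4 endothelial and 3 T cell markers tested had negative log2 fold changes, as did the plasma cell gene *Igkc* (-1.58 ± 0.51), 4 of 5 macrophage markers and, among 4 neutrophil markers, *Retnlg* and *Cxcr2* (-0.56 ± 0.13). All 5 epithelial markers tested had positive ones (median 0.24), the same sign as *Tef* and *Nr1d2*. The part of these cells in the levels of *Tef* and *Nr1d2* was not tested.

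Whether EC CAT acted differently in 4T1-CAT than in 4T1 was tested with 1 model over both experiments. *Tef* differed by 0.59 ± 0.22 and *Nr1d2* by 0.47 ± 0.23 (SE, log2), with adjusted p of 0.530 and 0.564 and unadjusted p of 0.0133 and 0.0499 by edgeR. *Arntl* differed by -0.45 ± 0.36. Of the 7 clock genes tested, 0 were called and 2 had an unadjusted p under 0.05, beside 0% and 8.79% of all 13851 genes. DESeq2 called 0 genes as well. The 4T1 and 4T1-CAT experiments were mostly in different pools. The corresponding difference between CT26 and 4T1 was not tested, since the CT26 values chose the genes.

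IC CAT, the comparison of 4T1-CAT with 4T1-control, asks whether catalase made inside the cancer cells goes with other clock gene levels. The 6 genes that passed the filter lay between -0.27 (*Tef*) and 0.15 (*Clock*) on the log2 scale. *Arntl* was 4.03, 6.75, 7.35, 8.17 and 9.04 CPM in 4T1-CAT and ranged from 4.99 to 10.9 CPM (median 7.35) in 4T1-control, and the groups overlapped throughout. Its log2 fold change was -0.05 ± 0.28 (SE; two-sided exact permutation p = 0.721). *Nr1d2* was at -0.17 ± 0.16, *Bhlhe41* at -0.18 ± 0.23 and *Per3* at -0.16 ± 0.41. *Tef* was at -0.27 ± 0.24 in the fitted model, whereas its mean log2 CPM was higher by 0.08 in 4T1-CAT (exact permutation p = 0.959). The shallowest 4T1-control tumor, with 1 *Tef* count, lay at 2.18 CPM and the other 5 between 9.21 and 17.3 CPM. The 4 genes that did not pass the filter (*Nr1d1*, *Dbp*, *Per1* and *Per2*) had exact permutation p between 0.511 and 0.987. edgeR called 0 of 12534 genes (0%), 637 genes, or 5.08%, had an unadjusted p under 0.05, and 0.63% did not overlap, with 0 clock genes in each of these counts. DESeq2 called 6 genes. None of the cell type markers was called by edgeR. All 7 muscle, 3 adipocyte, 5 fibroblast, 4 endothelial and 3 T cell markers tested had positive log2 fold changes, as had 2 of 5 epithelial markers. An unadjusted p under 0.05 was found for 5 of the muscle and 4 of the fibroblast markers. The 4T1-CAT alum tumors are shared with the EC CAT comparison in 4T1-CAT, where the first 5 of these marker sets were negative. The part of these cells in the clock gene levels was not tested.

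Between the unengineered models given alum, CT26 held more *Arntl* and *Dbp* than 4T1. The CT26 alum tumors are an arm of the contrast that chose the genes, most of which were high there, so these values are a description and no p is given. All 5 CT26 tumors lay above all 5 4T1 tumors for *Arntl*, *Clock* and *Dbp*. The log2 fold change was 1.43 ± 0.21 (SE) for *Arntl*, 0.71 ± 0.17 for *Clock* and 3.40 ± 0.40 for *Dbp*. *Clock* was at 0.16 in technical replicate 2 libraries alone. *Nr1d1* was at 1.67 ± 0.50 with overlapping groups. Like *Dbp* it passed the filter through the CT26 tumors, where it is high, which favors a difference. *Tef* was at 0.57 ± 0.21, and it lay between 0.36 and 0.77 in the 12 alternatives and between 0.43 and 0.69 with each tumor left out. *Nr1d2* was at 0.09 ± 0.19, *Bhlhe41* at 0.20 ± 0.26, *Per2* at 0.81 ± 0.35 and *Per3* at -0.06 ± 0.36, and *Per1* did not pass the filter. Of the 9 genes that passed the filter 3 did not overlap, beside 29.9% of all 12817 genes. Nothing is read from this count.

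The other clock genes and 2 further lists were tested in the same comparison, where edgeR called 42.4% of all 12817 genes. Of 13 other clock genes tested, 0 were higher and 4 were lower in CT26 by edgeR's quasi-likelihood test (median log2 fold change -0.36, beside 0.02 over all genes). They are what remained after genes mostly high in the CT26 alum tumors had been picked from among the clock genes. Their direction is therefore a description, and nothing is read from it. *Cry1* was at -1.21 ± 0.30 and the kinase gene *Csnk1d* at -0.70 ± 0.14. Of 8 clock-controlled genes tested, 4 were higher and 2 lower, among them *Por* at 1.36 ± 0.17, *Nampt* at 1.103 ± 0.22 and *Tars* at 0.89 ± 0.15. Of 8 glucocorticoid-responsive genes tested, 5 were higher and 1, *Sgk1* (-0.85 ± 0.15), was lower. The largest were the metallothioneins *Mt2* at 3.45 ± 0.37 and *Mt1* at 2.42 ± 0.35 and the cell cycle inhibitor gene *Cdkn1a* at 1.73 ± 0.18. *Fkbp5* was at -0.09 ± 0.13 and was not called. *Klf9* is in both the clock-controlled and the glucocorticoid-responsive list and is counted in each. Sums of cell type markers differed between both models as well, and a lower sum can mean fewer cells or less RNA per cell. Epithelial markers summed to between 20.4 and 32.0 CPM in CT26 alum tumors and between 1803 and 2737 CPM in 4T1 alum tumors, and T cell markers to between 41.4 and 96.8 and between 9.19 and 17.0 CPM. Their part in the clock gene differences was not tested. With the pool as a covariate *Nr1d1* was at 1.40 and *Tef* at 0.375, and within pools 2 and 3 they were at 1.39 and 0.36. The CT26 alum tumors and the 4T1 alum tumors are also the controls of the EC CAT contrasts above.

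4T1-control tumors, engineered and fed DOX, were also set against unengineered 4T1 tumors. *Arntl* ranged from 4.99 to 10.9 CPM (median 7.35) in 4T1-control, and the 5 values of 4T1 given above overlap with these. The highest value is that of the shallowest tumor, replicate 2, and rests on 5 counts. 4T1 alum replicates 1 and 2 were in other pools than all 4T1-control tumors. The log2 fold change was 0.53 ± 0.27 (SE; edgeR adjusted p = 0.522, two-sided exact permutation p = 0.0325). *Per1*, which did not pass the filter, had 0, 0, 1, 1, 5 and 5 counts in 4T1-control and 3, 6, 6, 10 and 18 counts in 4T1 (exact permutation p = 0.0216). These are the 2 lowest exact permutation p of the 10 genes, and neither is adjusted. Those of the rest lay between 0.255 (*Per3*) and 0.903 (*Per2*). Apart from *Arntl*, log2 fold changes of the tested genes lay between -0.41 (*Per3*) and 0.30 (*Per2*). Of the 7 genes tested 0 were called, 0 had an unadjusted p under 0.05 and 0 did not overlap, beside 0%, 10.5% and 1.16% of 12431 genes. DESeq2 called 16 genes, none of them a clock gene.

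Ordered by mean level, CT26 given CAT-ABP + alum came first and CT26 alum second for *Arntl* and *Clock*, and CT26 alum came first for all repressors and output genes except *Per1* and *Per3*. Between neighbours in these orders, only 4 of 60 steps had mean ± SD ranges that did not touch. 3 of these 4 steps are between both CT26 groups, the contrast that chose the genes, and are no evidence of separation. The 4 steps were both upper steps of *Arntl* (23.6 ± 5.33, 13.3 ± 2.43 and, in 4T1-control, 7.60 ± 2.32 CPM), that of *Nr1d1* from CT26 alum (3.56 ± 1.56 CPM) to the next group (1.13 ± 0.483 CPM), and that of *Dbp* from CT26 alum (7.55 ± 2.48 CPM) to the next (1.48 ± 1.36 CPM). No neighbouring groups of 4T1 and its engineered lines were apart by this measure for any of these genes. Group means of *Per3* lay between 2.84 and 4.65 CPM.

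**Figure D3:**
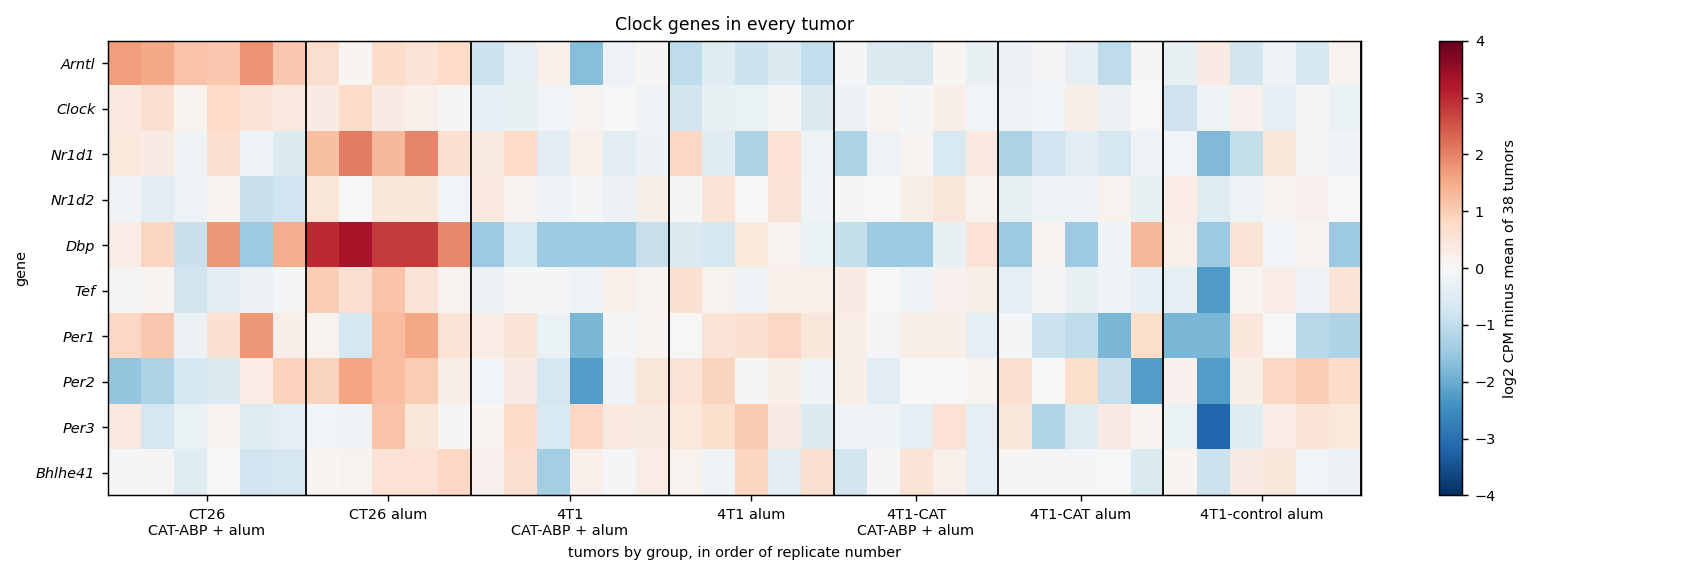
Log2 CPM of each clock gene (rows) in each tumor (columns, by group), minus the gene's mean over 38 tumors, on a color scale from blue (lower) to red (higher). *Dbp* is high in the 5 CT26 alum tumors, and 4T1-control replicate 2, with 493086 counts, is low for most repressors and outputs.

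Finally, the activator arm (mean log2 CPM of *Arntl* and *Clock*) was set against the repressor and output arm (mean of the other 8 genes) across tumors. In a clock that runs with different phases in different tumors, tumors high in one arm would be low in the other. With group means removed, Pearson's r was 0.24 in CT26 (Spearman's rho 0.07, 11 tumors), 0.09 in 4T1 (rho -0.03, 11 tumors) and 0.47 in 4T1-CAT (rho 0.42, 10 tumors). It was -0.60 in 4T1-control (rho -0.26, 6 tumors) and -0.07 over all 38 tumors (rho 0.01). These are descriptions with no test. The points of both arms share their library and depth, and the log2 total correlated with the repressor and output arm at r = 0.97 in 4T1-control and 0.57 over 38 tumors. With libraries of low depth left out, which removes 4T1-control replicate 2, r in 4T1-control was 0.03 over 5 tumors.

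When group means were kept, r in CT26 was -0.71 over 11 tumors (rho -0.74). That negative value lies between both CT26 groups, which is the contrast that chose the genes, and inside the groups r was positive. When the arms were taken from different libraries of the same tumors, r in CT26 was 0.21 and 0.11. With the arm reduced to the 4 repressor and output genes that passed the filter in every comparison, r was 0.18 in CT26, -0.35 in 4T1, -0.17 in 4T1-CAT and -0.26 over 38 tumors.

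**Figure D4:**
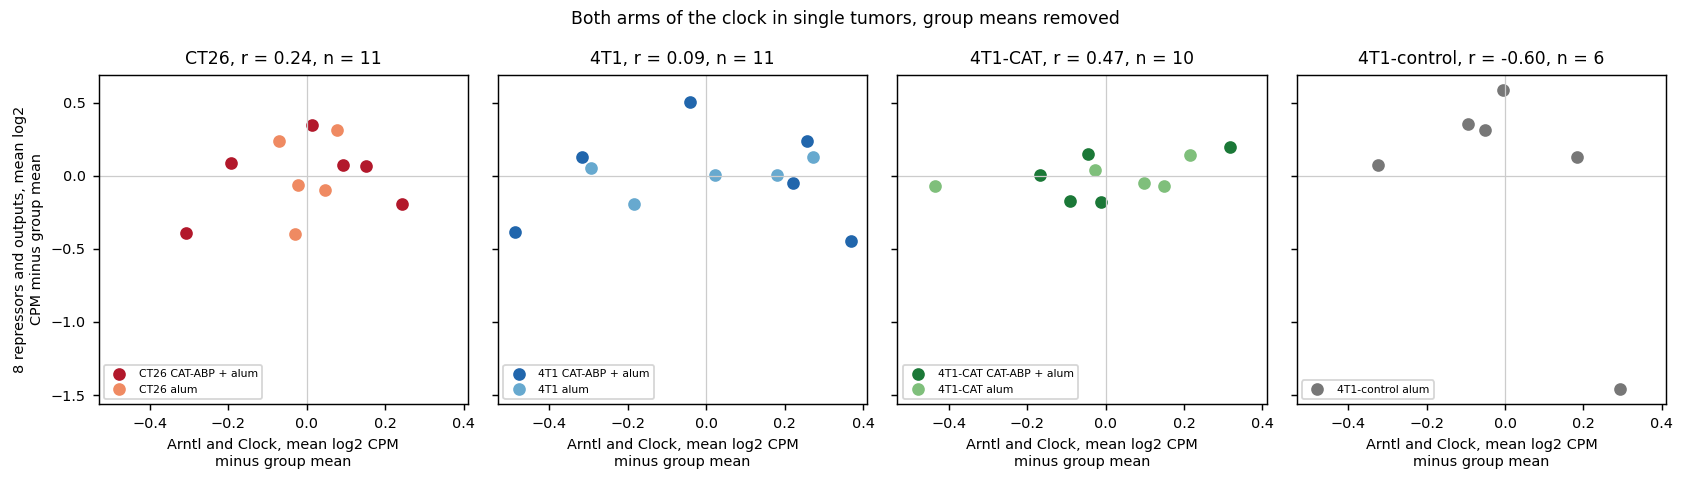
Mean log2 CPM of *Arntl* and *Clock* (x axis) against that of the 8 repressors and outputs (y axis) in single tumors, each minus its group mean, by line. Points in CT26, 4T1 and 4T1-CAT show r of 0.24, 0.09 and 0.47, and the tumor at the bottom of the 4T1-control panel is the one with 493086 counts.

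*Arntl* was also paired with each of the other 9 genes within each line, 36 relations in all, with permutation p from 100000 shuffles within groups. None passed an adjusted p of 0.05, the smallest being 0.294, and 2 had an unadjusted p under 0.05 for Pearson's r. In CT26, *Arntl* and *Per1* had r = 0.73 (permutation p = 0.0157, adjusted p = 0.294) and rho = 0.74 (permutation p = 0.0189, adjusted p = 0.393), and r was 0.55 without the 2 tumors farthest from the median of *Arntl*. *Arntl* and *Dbp* had r = -0.56 in CT26 (permutation p = 0.111, adjusted p = 0.638; rho -0.70, permutation p = 0.0406, adjusted p = 0.487), and r = -0.46 without those 2 tumors. In 4T1-control the pair had r = -0.92 over 6 tumors (permutation p = 0.0163, adjusted p = 0.294; rho -0.93, permutation p = 0.0218, adjusted p = 0.393), r = -0.81 over the remaining 4, and at most 4 *Dbp* counts per tumor. The same pair had positive r in the other lines, 0.17 in 4T1 (permutation p = 0.633) and 0.33 in 4T1-CAT (permutation p = 0.426). Between *Arntl* and *Nr1d1*, r was negative in all 4 lines, between -0.31 and -0.25, with no p under 0.05. The pair *Arntl* and *Per1* had positive r outside CT26 as well, 0.68 in 4T1 and 0.70 in 4T1-CAT, but -0.56 in 4T1-control. Their permutation p were 0.117, 0.0551 and 0.236. For *Arntl* and *Per2*, r was 0.71 in 4T1 (permutation p = 0.0751), -0.41 in CT26, -0.001 in 4T1-CAT and -0.575 in 4T1-control.

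Of 14636 other genes, *Flcn*, *Rnf169*, *Dot1l*, *Mex3d* and *Pcnx* followed the repressor and output arm most closely over 38 tumors with group means removed (r from 0.85 to 0.88), and *Lyar*, *Sgo1*, *Psmd4*, *Mfap1b* and *Zmat2* ran most opposite (r from -0.82 to -0.76). Without the tumor of 493086 counts these values fell to between 0.65 and 0.74 and to between -0.66 and -0.54. Of the 10 clock genes, *Per3* (0.75) and *Tef* (0.74), which are part of the arm, followed it most closely, and *Arntl* had r = -0.13.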

How the data were processed

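The authors made 3' digital gene expression libraries from the RNA of 38 whole tumors, which their methods call biological replicates, ran the Smart-seq2 pipeline on Terra and used DESeq2 for testing. What they deposited are estimated counts for each gene and library, without any scaling, of which 39.7% of those above 0 were not whole (tolerance 1e-06). The authors dropped some technical replicates for low depth without naming them, so all 76 libraries were kept (46233 to 6958626 counts, median 2075009). Both libraries of a tumor were added and rounded. Groups and days follow the labels, whereas the paper's text puts diet, injection and harvest a day later.

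Low genes were removed with filterByExpr and libraries scaled by TMM. edgeR's quasi-likelihood model then held the tumors of a single comparison, and p-values were adjusted by Benjamini-Hochberg over all genes tested, with a threshold of 0.05. The SE of a log2 fold change was its size divided by the square root of the quasi-likelihood F statistic, so it restates that test. Log2 CPM used a prior count of 2. For single genes, 50 exact permutation tests, two-sided and unadjusted, were run on log2 CPM. Alternatives were DESeq2, limma voom with quality weights, RLE size factors, no filter, a mean of at least 20 counts and 1 model over 7 groups. Others were the replicate number as a block, single technical replicates, the pool as a covariate, and each tumor left out. Libraries under 0.25 of the median (518752 counts, 7 libraries) were also left out. Fits within pools, the arm of 4 genes and the likeness without the shallowest tumor were added after seeing the data. The fits were tested on simulated data.

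The 10 genes and the lists (16 other clock genes, 11 clock-controlled genes, 10 glucocorticoid-responsive genes, cell type markers) were chosen with earlier results of these data known. The text names all 10 clock genes, at most 3 called genes per list and comparison by size of change, and the 5 highest and 5 lowest genes by r with the repressor and output arm. *Cry1*, *Cry2*, *Ciart*, *Bhlhe40*, *Por*, *Tsc22d3*, *Fkbp5*, *Myh4* and *Retnlg* in CT26, and *Igkc*, *Retnlg* and *Cxcr2* in 4T1-CAT, were named after their values were seen. So were *Sgk1*, *Fkbp5* and *Klf9* in CT26 against 4T1. 1 gene that this rule would name is not reported here. Gene positions are from GENCODE M21 (GRCm38). Software was R 4.3.3 with edgeR (4.0.16), limma (3.58.1) and DESeq2 (1.42.0).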

Additional observations from a re-analysis of the deposited data

Results flagged for a closer look

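Of 70 sets of tumors (10 genes in 7 groups), 2 held a tumor that stood apart by a test of its gap to the nearest tumor, where chance gives about 1 in 20. *Per3* was 5.01 CPM in 4T1-CAT CAT-ABP + alum replicate 4, from 50 counts, with the nearest tumor at 2.86 CPM. *Bhlhe41* was 5.50 CPM in 4T1-CAT alum replicate 5, from 14 counts, with the nearest tumor at 7.97 CPM. Without the first tumor the log2 fold change of *Per3* for EC CAT in 4T1-CAT turned from 0.01 to -0.26, and without the second that of *Bhlhe41* was 0.02, and neither was called by edgeR.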

How the results depend on the processing

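For EC CAT in CT26, *Arntl*, *Clock*, *Nr1d2*, *Dbp*, *Tef*, *Per2*, *Per3* and *Bhlhe41* kept their sign in every alternative run. *Per1* lay between -0.078 and 0.352 with each tumor left out. Depth limits *Dbp*, *Nr1d1*, *Per1* and *Per2*, which had 0 counts in some tumors.

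Genes called by edgeR moved with the method. For EC CAT in CT26 there was 1 call by DESeq2, 1 without a filter and 1 by voom. For EC CAT in 4T1 there were 16 without a filter. For IC CAT there were 6 by DESeq2 and 131 without a filter, and 0 to 1 with each tumor left out. For EC CAT in 4T1-CAT there were 249 by DESeq2, 47 without a filter and 10 by voom, and 0 to 1 with each tumor left out. For 4T1-control against 4T1 there were 16 by DESeq2, 130 without a filter, 10 in 1 model over 7 groups, 14 without libraries of low depth, 12 by voom and 1 within pools 1 and 4, and 0 to 6 with each tumor left out, 6 being without 4T1-control replicate 2. The difference of EC CAT effects had 1 without a filter. For CT26 against 4T1 there were 2849 in technical replicate 2 and 4823 to 5718 with each tumor left out. Calls of the clock genes are not given for this comparison, since the CT26 alum tumors took part in their choice. Why the numbers of calls moved was not tested.

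Signs that turned were all of uncalled values. In technical replicate 1 they were *Clock* for IC CAT (-0.069), *Per3* for EC CAT in 4T1-CAT (-0.029) and CT26 against 4T1 (0.060), and *Nr1d2* for 4T1-control (0.19). In technical replicate 2 they were *Clock* for EC CAT in 4T1 (-0.24), EC CAT in 4T1-CAT (-0.30) and 4T1-control (-0.078), *Arntl* for IC CAT (0.021) and EC CAT in 4T1-CAT (-0.028), and *Bhlhe41* for EC CAT in 4T1-CAT (-0.15) and the difference of effects (-0.0875). By pool, *Bhlhe41* turned for EC CAT in 4T1 (0.092 as a covariate, 0.093 within pools 2 and 3) and for the difference (-0.002). *Per3* turned for EC CAT in 4T1-CAT by DESeq2 (-0.0115) and RLE (-0.0099) and for CT26 against 4T1 by voom (0.11), and *Arntl* for IC CAT without libraries of low depth (0.0445). With each tumor left out, *Per3* lay between -0.382 and 0.0141 for EC CAT in 4T1, -0.344 and 0.0511 for IC CAT, -0.26 and 0.19 for EC CAT in 4T1-CAT, -0.42 and 0.14 for CT26 against 4T1, and -0.067 and 0.394 for the difference. *Arntl* lay between -0.15 and 0.12 for IC CAT and between -0.10 and 0.17 for EC CAT in 4T1-CAT, where *Clock* lay between -0.0194 and 0.141 and *Bhlhe41* between -0.0749 and 0.230.

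The r between arms became -0.222 in 4T1, 0.034 in 4T1-control and 0.083 over 38 tumors without libraries of low depth, -0.143 in CT26 with *Arntl* alone, -0.709 in CT26, -0.197 in 4T1 and 0.211 over 38 tumors with group means kept, and -0.347 in 4T1 and -0.165 in 4T1-CAT with 4 genes.

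Replicate numbers did not pair the tumors, as the lowest correlation of same-numbered tumors was between -0.369 and -0.114 over 6 comparisons and own numbers correlated best in 0 to 2 of 5 pairs. The replicate block gave 3 calls for EC CAT in 4T1-CAT, turned *Per3* for IC CAT (0.15) and left *Tef* in CT26 against 4T1 at 0.53.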
